A study of Mus musculus with 6 samples.

Results

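The genes described here are those of the enzymes that remove peroxides in mouse bone marrow: the peroxiredoxins (Prdx1 to Prdx6), the glutathione peroxidases Gpx1 and Gpx4, catalase (Cat) and glutathione reductase (Gsr). They were chosen as a list of 10 gene symbols, looked up in the array platform's annotation, and 7 of the 10 were measured among 18193 genes in all. Prdx2, Prdx3, Prdx4, Gpx1, Gpx4, Cat and Gsr have probe sets that carry their symbol alone. All 5 probe sets with the symbol Prdx1 also carry the symbol of a predicted gene, Gm21399, so that its signal could not be assigned, and Prdx1 is not analysed here. No probe set carried the symbol Prdx5 or Prdx6 in the annotation used, and neither gene is analysed here.

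Whole marrow was compared with cells sorted from it for green fluorescent protein (GFP), whose expression renin gene sequences drive in the transgenic line used. All samples came from adult animals, male and female, aged 3 to 6 months and hemizygous for this transgene, so the unsorted controls carry it too. On each of 3 occasions marrow flushed from the femurs of 4 to 5 mice was pooled, a portion was left unsorted (presort, n = 3) and the remainder was sorted (sorted, n = 3), and each portion was read on 1 Affymetrix 3' expression array. The sort first removed erythrocytes and debris by light scatter, which the presort portion did not undergo, and its lower GFP limit admitted 0.1% of cells from animals without the transgene. A sample is therefore a pool of animals and a mixture of cell types, and in such bulk RNA fewer cells of a type and less RNA per cell cannot be told apart. Levels below are log2 of the deposited intensity, and a difference is sorted minus presort on that scale, so that -1 is a halving. A gene was called changed at a Benjamini-Hochberg adjusted p under 0.05 over all 18193 genes (limma), and 1 probe set, the one with the highest mean over the 6 arrays, stood for each gene.

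Hydrogen peroxide leaks from respiration and from oxidases, and cells break it down by parallel routes. Catalase splits it directly in peroxisomes. Peroxiredoxins reduce it through a reactive cysteine that thioredoxin then restores, while glutathione peroxidases, selenium enzymes in the case of Gpx1 and Gpx4, use glutathione, which glutathione reductase regenerates with NADPH. In marrow these enzymes are best known from red cells, whose hemoglobin is a steady source of oxidants and in which Prdx2, Gpx1 and catalase are abundant, and from phagocytes, which make oxidants to kill microbes.

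Of the 7 measured genes, 6 were lower in sorted cells and none was higher, whereas over all genes tested 32.6% were called, 18.1% as lower and 14.5% as higher. The median difference of the 7 was -1.15, against -0.0021 over all genes. The differences of the 5 peroxidase genes ran from -0.90 for Gpx4 to -1.28 for Gpx1, which is 1.87-fold to 2.44-fold, and with probe sets averaged from -0.60 for Prdx4 to -1.70 for Prdx2. Glutathione reductase fell by 3.40, or 10.6-fold, and catalase did not pass the test at -0.11. All 3 sorted values lay below all 3 presort values for the 6 called genes, which was so for 23.6% of all genes, while 20.9% had all sorted values above. The genes were listed with earlier results of these arrays known, so their count is a description.

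**Figure D1:**
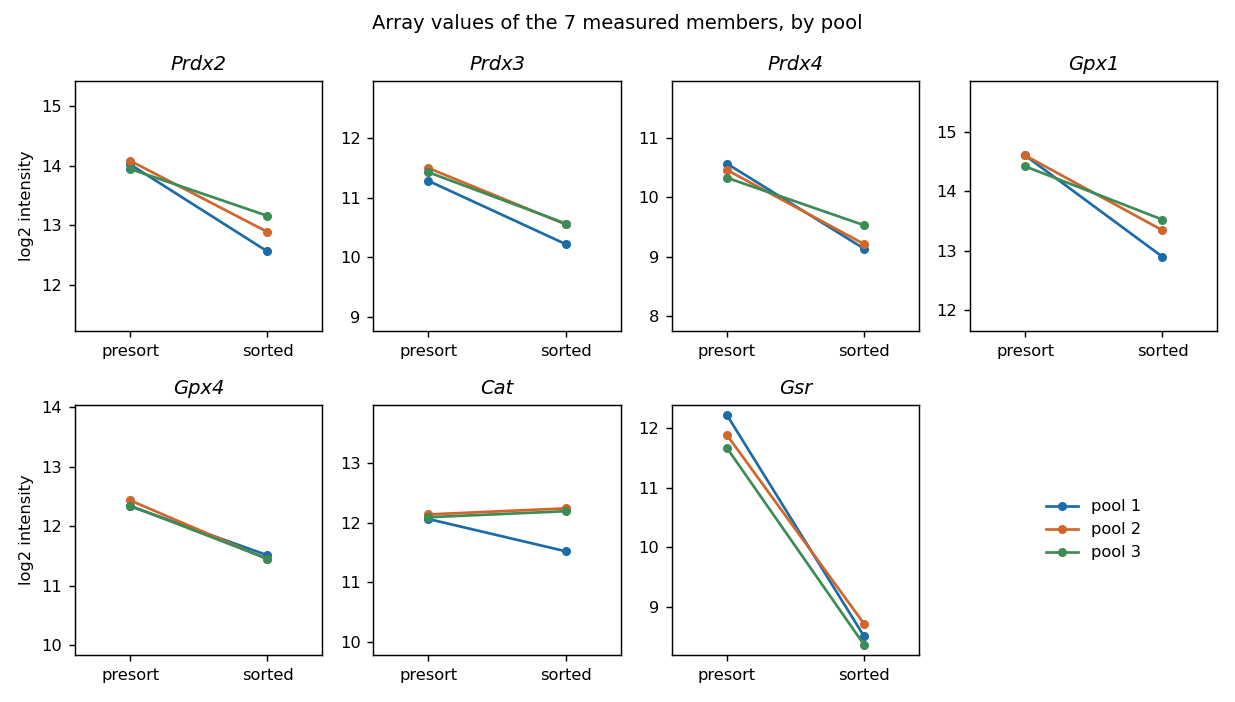
Log2 intensity (vertical axis, each panel spanning the same range) of the 7 measured genes in presort and sorted samples; each line joins the presort and the sorted sample of 1 pool. All lines descend in 6 panels. Pool differences run from -0.79 (Prdx2, pool 3) to -1.70 (Gpx1, pool 1) for the peroxidase genes and from -3.18 to -3.72 for Gsr. For Cat the line of pool 1 descends and those of pools 2 and 3 rise by 0.10.

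The samples differed in cell composition and in RNA quality as well. Marker lists summed as intensity separated the groups: 9 B cell genes ran from 9771 to 19613 in presort and from 69820 to 74633 in sorted samples, and all 9 were called higher. Erythroid (11 of 11 measured genes), neutrophil (12 of 12), monocyte and macrophage (11 of 11) and proliferation genes (9 of 9) were all called lower. The erythroid sum fell from between 76253 and 79209 to between 15080 and 32112, the neutrophil sum from between 218875 and 230618 to between 62241 and 116236, the monocyte and macrophage sum from between 23251 and 30901 to between 2302 and 5367, and the proliferation sum from between 49725 and 50505 to between 8548 and 13530. None of these genes is at 0, since background-corrected intensities of this kind never reach it. The labelled tissue, bone marrow, showed its erythroid and granulocyte markers in every presort sample. The gap between the 3' and 5' control probe sets of beta-actin, which widens in degraded RNA, was 0.96 ± 0.15 (SD, log2, n = 3) in presort and 2.05 ± 0.98 (n = 3) in sorted samples (exact permutation p = 0.1, two-sided, the lowest value available with 3 against 3), with sorted replicate 1 at 3.17. The erythroid sum of the sorted samples was 15080, 23687 and 32112 in replicates 1, 2 and 3, and the beta-actin gap, at 3.17, 1.54 and 1.43, had the reverse order. At the probe sets standing for the genes, sorted levels of Prdx2, Prdx3, Prdx4 and Gpx1 had the order of the erythroid sum. Those of Gpx4, Cat and Gsr did not. The proliferation sum, at 8548, 12141 and 13530 in sorted replicates 1, 2 and 3, had the same order as the erythroid sum. Gsr had the order of the neutrophil sum, at 73388, 116236 and 62241. Cat had that of the monocyte and macrophage sum, at 2302, 5367 and 4812. How many of all genes had each order was not counted, and 3 values can share an order by chance. The split by the erythroid order depended on the probe set. The second probe set of Prdx2 and the other probe sets of Prdx4 lacked the order. The second probe sets of Cat and Gsr had it. The part of cell composition or RNA quality in the differences below was not tested beyond the values given beside each gene.

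**Figure D2:**
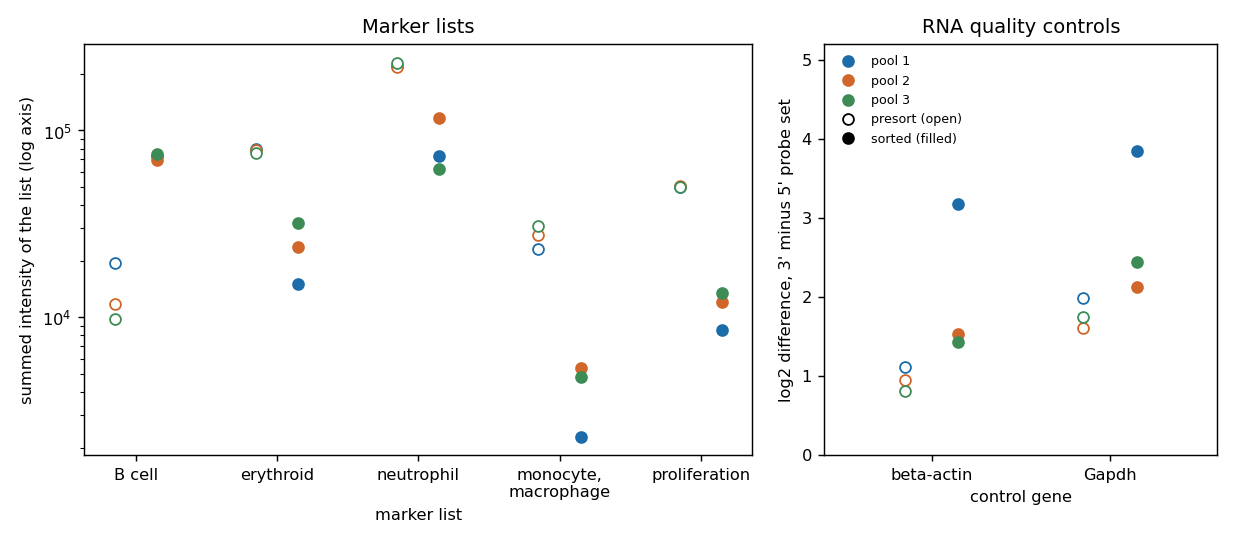
Left, summed intensity (log axis) of 5 marker lists in each sample; right, log2 difference between the 3' and 5' control probe sets of beta-actin and Gapdh. Open symbols are presort and filled symbols sorted samples, coloured by pool: the B cell sum rises to between 69820 and 74633 and the other sums fall in every pool, and sorted replicate 1 has the highest 3' to 5' differences, at 3.17 and 3.84.

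Prdx2 encodes the cytosolic peroxiredoxin that is among the most abundant proteins of the red cell. Its level was 14.03, 14.09 and 13.95 in presort replicates 1, 2 and 3 and 12.56, 12.89 and 13.16 in the sorted ones. Every sorted sample was below every presort sample, with the widest gap in pool 1 (-1.46) and the narrowest in pool 3 (-0.79). The difference of -1.15 ± 0.16 (SE, 2.22-fold, limma adjusted p = 0.000921) had a 95% confidence interval from -1.52 to -0.78. By its mean over the 6 arrays, 99.5% of genes were dimmer, so that its fall was read near the upper end of the scale. A second, dimmer probe set of Prdx2 had a larger difference of -2.24 ± 0.28 (SE, adjusted p = 0.000784 over 34945 probe sets, limma), from 12.93, 12.20 and 12.03 to 10.41, 9.70 and 10.31. Both probe sets gave the same direction in each pool, but not the same size, and the mean of both stood at -1.70.

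Prdx3 encodes the peroxiredoxin of the mitochondrial matrix and is read by 1 probe set. It stood at 11.28, 11.50 and 11.43 in presort and at 10.22, 10.55 and 10.57 in sorted samples. Its differences were alike in the pools, at -1.06, -0.95 and -0.86, and the groups did not overlap. The fall was 0.96 ± 0.13 (SE, 1.94-fold, limma adjusted p = 0.000945, 95% confidence interval of the difference -1.27 to -0.65).

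Prdx4 encodes the peroxiredoxin of the endoplasmic reticulum, where it takes part in oxidative protein folding and is known from secretory cells. Presort samples read 10.57, 10.46 and 10.33 and sorted samples 9.14, 9.21 and 9.53. The difference narrowed from -1.43 in pool 1 through -1.25 in pool 2 to -0.80 in pool 3 without overlap of the groups, and was -1.16 ± 0.14 (SE, 2.23-fold, limma adjusted p = 0.000418). Of its 3 other probe sets, those next in brightness fell by 0.85 ± 0.22 (adjusted p = 0.0246 over all probe sets) and 0.68 ± 0.13 (0.00643). The dimmest, with only 21.9% of probe sets dimmer, stood at 0.28 ± 0.18 and did not pass (0.325). With all 4 averaged the fall of Prdx4 was 0.60 ± 0.09 (limma adjusted p = 0.00186).

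Gpx1 encodes the cytosolic glutathione peroxidase, which removes hydrogen peroxide and soluble lipid hydroperoxides. It was at 14.60 in presort replicates 1 and 2 and at 14.42 in replicate 3, and fell to 12.90, 13.35 and 13.52 in the sorted samples. The differences ran from -1.70 in pool 1 through -1.26 in pool 2 to -0.89 in pool 3. All sorted values lay below all presort values. The difference was -1.28 ± 0.17 (SE, 2.44-fold, limma adjusted p = 0.000717, 95% confidence interval -1.68 to -0.89). As for Prdx2, the gene is close to the top of the scale, with 99.8% of genes dimmer.

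Gpx4 encodes the glutathione peroxidase that repairs lipid hydroperoxides within membranes and thereby holds back ferroptosis, a form of cell death that iron drives. Its presort values were 12.33, 12.43 and 12.34 and its sorted values 11.51, 11.44 and 11.45. Of the 7 genes it varied least among the sorted samples (SD 0.04, n = 3, against 0.06 among presort samples), and unlike the other 4 peroxidase genes it did not have its widest gap in pool 1 (-0.82, -0.99 and -0.89). The fall was 0.90 ± 0.10 (SE, 1.87-fold, limma adjusted p = 0.000282). The name of the probe set used ends in _x_at, and 1 alternative left out names ending in _x_at or _s_at. The other probe set of Gpx4, whose name has neither ending, fell by 1.22 ± 0.12 (limma adjusted p = 0.000306 over all probe sets).

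Catalase did not change detectably at the threshold used. Cat stood at 12.06, 12.14 and 12.09 in presort samples and at 11.52, 12.24 and 12.19 in sorted ones. Sorted replicate 1 alone lay below the presort range, and sorted replicates 2 and 3 lay above it, each 0.10 above its own presort sample. The difference was -0.11 ± 0.19 (SE, limma adjusted p = 0.738), with a 95% confidence interval from -0.56 to 0.34. Without sorted replicate 1, the array with the widest 3' to 5' gap, Cat stood at 0.12 ± 0.11 (adjusted p = 0.472). The second probe set of Cat read 12.28, 12.33 and 12.11 against 11.35, 11.81 and 12.05, was lower in each pool, by 0.93, 0.52 and 0.05 in pools 1, 2 and 3, and stood at -0.50 ± 0.19 (adjusted p = 0.0881 over all probe sets). Both probe sets thus missed the threshold, and the second was below 0 in all 3 pools. The 95% confidence interval of the second, not adjusted for the number of tests, ran from -0.94 to -0.07 and left out 0. Both are nearly alike in brightness, with 97.6% and 97.5% of probe sets dimmer. In each presort sample the second was the brighter.

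Catalase was also set against each other gene within the same arrays, a comparison added after the values were seen. Cat had the difference nearest to 0, so the mean changes to its brighter probe set had to be negative. The log2 ratio of Gpx1 to Cat, as probe set intensities, changed by -1.16, -1.36 and -0.997 in pools 1, 2 and 3, and that of Prdx2 to Cat by -0.92, -1.30 and -0.89. The mean change of the ratio to Cat was -0.85 for Prdx3, -1.05 for Prdx4, -0.79 for Gpx4 and -3.29 for Gsr. These ratios are to the brighter probe set of Cat, for which the change was negative in every pool for all 6 genes. Against the second probe set, an alternative added after the values were seen, the mean changes were smaller, at -0.65 for Prdx2, -0.46 for Prdx3, -0.66 for Prdx4, -0.78 for Gpx1, -0.40 for Gpx4 and -2.90 for Gsr, and that of Gpx4 was 0.11 in pool 1 (exact permutation p = 0.3, two-sided). The exact permutation p (two-sided) was 0.1 for each of the 6 ratios to the brighter probe set, the lowest that 3 against 3 samples can give, so none could pass a threshold of 0.05 before or after adjustment. Such a ratio shows unequal change of both genes, not that either was constant.

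Glutathione reductase fell most of the 7 genes. Gsr, the enzyme that returns oxidized glutathione to its reduced form, stood at 12.23, 11.89 and 11.67 in presort and at 8.51, 8.72 and 8.36 in sorted samples. Every sorted sample was far below every presort sample. The difference was -3.40 ± 0.17 (SE, limma adjusted p = 1.58e-05, 95% confidence interval -3.79 to -3.01), with -3.72, -3.18 and -3.31 in pools 1, 2 and 3. Among all genes tested, 63 had a lower value, or 0.346% of them. The second probe set of Gsr fell by 3.62 ± 0.32 (adjusted p = 0.000184 over all probe sets), from between 10.28 and 10.32 to 5.84, 7.06 and 7.14. In a model with the beta-actin gap as a covariate Gsr stood at -3.44, and without sorted replicate 1 at -3.39. The median differences of the marker lists were -2.02 for neutrophil, -2.88 for monocyte and macrophage and -2.90 for erythroid genes. Single genes of these lists ran from -3.49 to -0.69, from -3.48 to -2.22 and from -3.65 to -1.16, in that order. At the probe set standing for it, Gsr lay within each of these ranges. Its second probe set, at -3.62, lay below the neutrophil range and the monocyte and macrophage range, and within the erythroid range. The proliferation list had a median of -2.51 and ran from -3.12 to -1.89. The part of cell composition in the fall of Gsr was not tested.

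**Figure D3:**
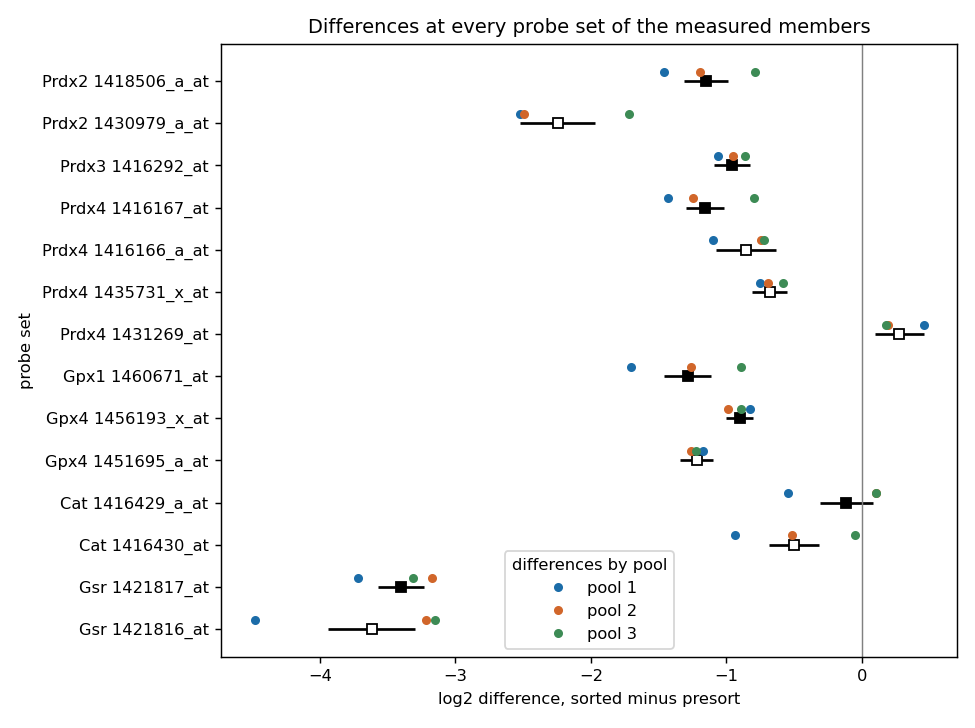
Log2 difference between sorted and presort samples (horizontal axis) at every probe set of the 7 genes. Squares with bars are the mean difference and its SE from limma, filled for the probe set that stands for the gene, and dots are the 3 pools: all squares but that of the dimmest Prdx4 probe set (0.28) lie below 0, the brighter Cat probe set has its dots of pools 2 and 3 at 0.10, and both Gsr squares lie beyond -3.

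The falls of Prdx2, Prdx3, Prdx4 and Gpx1 were smaller once the RNA quality measure entered the model, and that of Gpx4 was not. With the gap between the beta-actin control probe sets as a covariate Prdx2 and Gpx1 stood at -0.86 ± 0.16 (SE, limma adjusted p = 0.00676) and -0.96 ± 0.16 (0.00453). Prdx3, Prdx4 and Gpx4 stood at -0.73, -1.02 and -0.94. The gap ran from 0.81 to 1.11 in presort and from 1.43 to 3.17 in sorted samples, without overlap. RNA quality and the sort therefore cannot be told apart by this model. Without sorted replicate 1 the differences were -0.99 for Prdx2, -0.84 for Prdx3, -1.08 for Prdx4, -1.11 for Gpx1 and -0.92 for Gpx4. Centring each array on its median moved the median of all genes from -0.0021 to 0.23 and the share of called genes that were higher from 44.4% to 66.7%. Under it the 6 genes were still called lower, from -0.67 for Gpx4 to -3.17 for Gsr, while Cat turned to 0.11 ± 0.18 (adjusted p = 0.599).

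The genes whose sample values ran closest to those of each member were found by the mean absolute difference of the 6 log2 values, each gene being centred on its own mean. For Prdx2 they were Ipo5 (0.03) and Itsn1 (0.04), and Ipo5 was also near to Gpx1 (0.06), after Sec14l1 (0.06). For Prdx3 they were Ssbp2 (0.04) and Nudt8 (0.05), for Prdx4 Klhl32 (0.06) and Foxm1 (0.07), and for Gpx4 Dab2ip and Hdlbp (0.03 each). Cat was matched by Slc25a17 (0.01), the gene of a peroxisomal membrane carrier, and Rnasek (0.02). Gsr had no neighbour as close, the nearest being Cldn1 and Ppp1r3d (0.11 each). With 6 samples in 2 groups, such likeness mainly reflects the size of the difference.

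The promoters of the members were read for the motifs of regulators known for antioxidant and for erythroid genes. Of the 7 measured genes, 6 have promoters in the RefSeq table used (assembly GRCm38.p6), 9 promoters in all, and Gsr is not among them. The core of the antioxidant response element, TGACNNNGC on either strand, was in none of the 9 windows of 250 bases before the transcription start, and 10.2% of 32851 such windows of all genes held it. A GATA motif, AGATAA or TGATAA on either strand, was in 2 of them, both of Gpx4 and overlapping each other, so that they hold the same site, and 16.6% of all windows held one. A match or its absence describes only these letters in this window. The windows below are shown because they set side by side a peroxidase gene called lower (Gpx1), the gene that did not change detectably (Cat) and the only 1 of the 6 with a motif (Gpx4, in the windows of 2 of its 4 listed starts, of which 1 is shown). They are written 5′ to 3′ along the gene's strand in lower case, and capitals mark the GATA motif, which begins 145 bases before the Gpx4 start. The windows are chr9:108338830-108339079 on the plus strand for Gpx1, chr2:103485154-103485403 on the minus strand for Cat and chr10:80053315-80053564 on the plus strand for Gpx4.
Gpx1: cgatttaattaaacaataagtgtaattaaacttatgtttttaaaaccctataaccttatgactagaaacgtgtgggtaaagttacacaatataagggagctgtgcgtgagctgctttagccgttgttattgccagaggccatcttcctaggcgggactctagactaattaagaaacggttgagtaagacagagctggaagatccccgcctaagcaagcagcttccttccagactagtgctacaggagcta
Cat: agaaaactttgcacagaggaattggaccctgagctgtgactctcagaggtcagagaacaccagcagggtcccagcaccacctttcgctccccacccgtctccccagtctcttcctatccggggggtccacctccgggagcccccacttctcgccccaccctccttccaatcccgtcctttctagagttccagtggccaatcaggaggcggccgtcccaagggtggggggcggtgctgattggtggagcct
Gpx4: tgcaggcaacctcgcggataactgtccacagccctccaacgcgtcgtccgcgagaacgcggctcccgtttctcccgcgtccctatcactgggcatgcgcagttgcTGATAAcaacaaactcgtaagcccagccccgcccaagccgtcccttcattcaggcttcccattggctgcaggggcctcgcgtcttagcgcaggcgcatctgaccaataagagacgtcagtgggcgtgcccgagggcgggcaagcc
The Gpx1 window has 42.0% G and C, against 62.0% for Cat and 63.2% for this window of Gpx4.

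Genes that serve the same routes were taken as 7 lists of 71 genes, of which 68 were measured. Of these, 34 were lower and 11 higher in sorted cells, where 18.1% and 14.5% of all genes were, and the median difference was -0.53. The values of all 6 samples did not overlap between groups for 50 of the 68, against 44.4% of all genes.

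In the thioredoxin system, which recharges the peroxiredoxins, 5 of 10 genes fell and 3 rose (median -0.20). The shares over all genes were 18.1% lower and 14.5% higher. Txn1, cytosolic thioredoxin, fell by 1.24 ± 0.17 (SE, limma adjusted p = 0.000904), from 13.77 ± 0.12 to a sorted mean of 12.53 (SD, log2, n = 3), and stood at -0.81 when its probe sets were averaged. Txnrd2, the mitochondrial thioredoxin reductase, fell by 1.74 ± 0.15 (7.58e-05). Sesn3, a sestrin of the stress response, rose by 2.04 ± 0.18 (8.36e-05), from 8.86 to 10.89. The other risers, named after their values were seen, were Txnip, an inhibitor of thioredoxin, at 1.01, and Sesn1 at 0.97. The remaining sestrin of the list, Sesn2, went the other way and was called lower at -1.02 (limma adjusted p = 0.00304). It was also named after its value was seen. Among the fallers, Txnrd3 (-0.52) lost its call under 10 of 19 alternatives and Sesn2 under 1. Srxn1, the sulfiredoxin that repairs overoxidized peroxiredoxins, stood at 0.12 and did not pass.

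Genes of glutathione synthesis and NADPH supply fell in 7 of 12 cases and rose in 3 (median -0.58). Among all genes, 18.1% were called lower and 14.5% higher. Of the fallers, Slc7a11 (-0.42) lost its call under 8 of 18 alternatives and Gss (-0.73) under 3 of 19. Gclm, the modifier subunit of the enzyme that limits glutathione synthesis, stood at -2.22 ± 0.25 (SE, limma adjusted p = 0.000282), Glrx, a cytosolic glutaredoxin, at -2.21 ± 0.21 (0.000138) and Idh1, which makes NADPH in the cytosol, at -1.82 ± 0.17 (0.000119). The 3 that rose, named after their values were seen, were Gclc, the catalytic partner of Gclm, at 0.42, Nnt, a mitochondrial source of NADPH, at 0.51 and Glrx3 at 0.81. The call of Gclc was lost when its probe sets were averaged, without pool 2 or pool 3, and without any 1 array of those pools. That of Glrx3 was lost without pool 2 (adjusted p = 0.0860) and with the beta-actin gap in the model (0.0752), and that of Nnt without pool 2 or pool 3, and both under limma's treat against 0.5.

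Of the glutathione S-transferases, which join glutathione to other molecules, 11 of 12 fell and none rose (median -1.49). Over all genes, 18.1% were called lower and 14.5% higher. Gstm5 stood at -3.26 ± 0.18 (SE, limma adjusted p = 1.95e-05), the microsomal Mgst3 at -2.99 ± 0.33 (0.000265; -1.50 when its probe sets were averaged) and Gstt1 at -2.25 ± 0.13 (2.18e-05). The call of Gstk1 (-0.56, limma adjusted p = 0.0404) was lost under 11 of 19 alternatives, the pool as a block among them (0.0549). Mgst1 (-0.66) lost its call under 7 of the alternatives, Gstz1 (-0.65) under 3 and Gstp1 (-0.74) under 1.

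Of the 6 other glutathione peroxidases, none was called lower and 1 rose (median 0.08), where 18.1% and 14.5% of all genes were called. Their difference from Gpx1 and Gpx4 was not tested, and Gpx5 to Gpx8 are dim, with 8.68% to 38.7% of genes dimmer. Gpx2, known from the gut epithelium, rose by 1.25 ± 0.14 (SE, limma adjusted p = 0.000279), from 6.69 ± 0.12 in presort (SD, log2, n = 3) to a mean of 7.94 in sorted samples, where it read 8.10, 8.02 and 7.70. All 3 sorted values were above the presort values. Gpx3, the plasma enzyme, stood at -0.76 (-0.77, -0.79 and -0.70 in pools 1, 2 and 3) and did not pass (limma adjusted p = 0.0608), but was called lower with the pool as a block (0.00192). Gpx5, Gpx6, Gpx7 and Gpx8 had differences from -0.12 to 0.20.

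Superoxide dismutases turn superoxide into hydrogen peroxide. Of their list, which includes the copper chaperone Ccs, Sod1 in the cytosol stood at -0.72 ± 0.11 (SE, limma adjusted p = 0.00175) and Sod2 in mitochondria at -0.57 ± 0.10 (0.00344), both called lower, while 2 of the 4 genes did not pass. One of these, Ccs, was called lower with the pool as a block (-0.54, adjusted p = 0.0119, against 0.0588 without it). Averaged over its probe sets, Sod1 stood at -0.15 (limma adjusted p = 0.405). Of all genes tested, 18.1% were called lower.

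Among regulators and targets of Nrf2, the transcription factor of the antioxidant response, 7 of 12 fell and 2 rose (median -0.51). For all genes tested these shares were 18.1% and 14.5%. Hmox1, heme oxygenase, which is also a gene of macrophages that clear red cells, stood at -2.34 ± 0.33 (SE, limma adjusted p = 0.00105), the small Maf partner Mafg at -1.68 ± 0.22 (0.000696) and the quinone reductase gene Nqo1 at -1.31 ± 0.11 (6.37e-05). The 2 risers, named after their values were seen, were the other small Maf genes, Maff at 1.23 and Mafk at 0.62, and both calls were lost without pool 1, without pool 3, without presort replicate 1 or 3, without sorted replicate 3 and with the beta-actin gap in the model. The call of Maff was also lost without presort replicate 2 or sorted replicate 1. Of the fallers, Fth1 (-0.47) lost its call under 7 of 19 alternatives and Bach1 (-0.60) under 4. The Nrf2 gene itself, Nfe2l2, also named after its value was seen, stood at -0.54 (adjusted p = 0.0219), lost its call under 10 of 19 alternatives and stood at 0.16 when its probe sets were averaged, so its direction is not settled.

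Genes of selenoprotein synthesis and 4 further selenoproteins, which share the selenium supply of Gpx1 and Gpx4, had 2 of 12 genes lower and 2 higher (median -0.13), where 18.1% and 14.5% of all genes were. With the pool as a block Selenof, a selenoprotein of the endoplasmic reticulum, was also called lower (-0.76, limma adjusted p = 0.0160) and Sepsecs, which makes selenocysteine on its tRNA, higher (0.53, 0.0182). Selenow rose by 1.14 ± 0.15 (SE, limma adjusted p = 0.000627), a call lost without probe sets named _x_at or _s_at (0.53, 0.301). Secisbp2, which lets ribosomes read the selenocysteine codon, rose by 0.90 ± 0.19 (0.00805), lost without pool 3 (0.0683). Sephs2, which makes the selenium donor, fell by 1.06 ± 0.29 (0.0241), lost with the beta-actin gap in the model (-0.62, 0.240) and without pool 1 (0.0603), pool 3 (0.205) or any 1 of presort replicates 2 and 3 and sorted replicates 1 and 3.

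**Figure D4:**
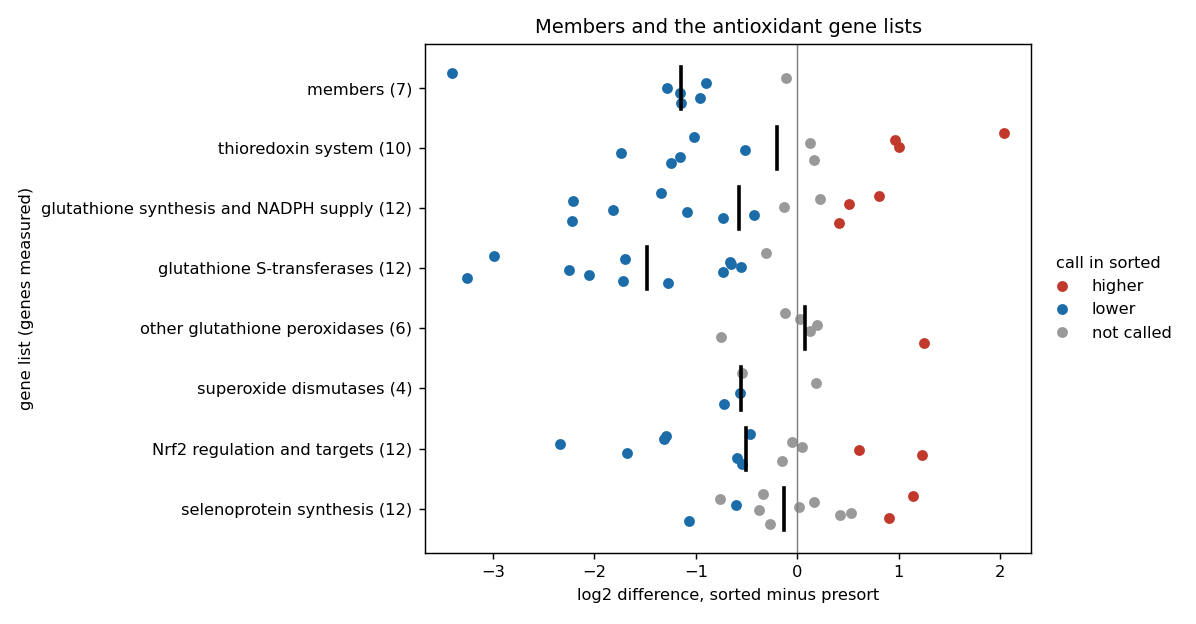
Log2 difference between sorted and presort samples (horizontal axis) for the 7 measured members and the 7 lists of related genes, 1 dot a gene, with the black line at the list's median. Blue dots were called lower and red dots higher (limma adjusted p under 0.05): the glutathione S-transferases have no red dot and a median of -1.49, and the thioredoxin list has its highest gene, Sesn3, at 2.04.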

How the data were processed

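The authors deposited linear intensities, 1 column per array, computed by RMA according to the submitters' processing notes; the RMA version is not given in the sources used here. They run from 9.71 to 38492.08 on every array, as quantile normalization leaves them, so a change in total RNA per cell leaves no trace. Per the labels' protocols, total RNA was extracted with Trizol and labelled from the 3' end.

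Log2 was taken with no pseudocount. Of 45101 probe sets, 34945 with 1 gene symbol were used, and 932 with several symbols, 9160 without one and 64 controls were not. The comparison of both groups used lmFit and eBayes of limma 3.58.1 under R 4.3.3 (two-sided, 18193 genes, no filter). Pool, the block, is shared by same-numbered samples per the labels, and deviations of such samples from their group means correlated at 0.39, 0.20 and -0.03. In simulated data for this comparison (18193 genes, 200 changed), 63% of log2 changes of 1 and 97% of changes of 2 were recovered, with 12 false calls. The deposited data had 5925 called genes, and the adjusted threshold depends on how many genes change. These rates therefore need not hold for the comparison made here. The number of arrays limits the precision. Alternatives were the pool as a block, leaving out arrays or pools, other scalings, other probe set rules, no dim genes, other variance priors and weights, treat, and a beta-actin covariate. Figures used matplotlib 3.10.9 in Python 3.11.15.

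The members and lists were chosen with earlier results of these data known. The text names all members, up to 3 called genes per list with the largest differences, and 2 nearest genes per member, passing over unnamed transcripts; other genes are said to be named later or are given as values. The ratios to Cat were added after the values were seen. The renin gene is not reported here, and the sort was not checked against it.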

Additional observations from a re-analysis of the deposited data

How the results depend on the processing

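The 6 falls of the members kept their direction and stayed called under all 19 alternatives, with adjusted p up to 0.0338 (Prdx3, limma's treat against 0.5), and no member was called higher under any. Cat was not called under any of them, but leaving out 1 array moved it between -0.24 and 0.12, and its sign turned to 0.12 without sorted replicate 1, 0.10 without pool 1, 0.11 with centred arrays and 0.33 with the beta-actin covariate; the cause was not tested. With the replicate block, 6 members, 36 pathway genes and 3548 of all genes were lower and 12 and 2860 higher, and the pairing changed no call of a member. Without 1 array or pool, 6 to 10 pathway genes were higher (8 to 10 without 1 array, 6 without pool 3) and 1544 to 2608 of all genes. Treat against 0.5 asks for a larger change and left 996 of all genes higher and 1800 lower, and 4 and 19 pathway genes. Centred arrays gave 5162 genes higher. Of the 45 called pathway genes, 23 lost their call under at least 1 alternative. Gpx1 and Prdx2 are brighter than 99.8% and 99.5% of genes, and the effect of the upper end of the scale on their differences was not tested.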
